A study of Mus musculus with 12 samples.

Results

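The genes for the proteins of the mitochondrial ribosome were followed in whole livers of septic mice. Members were all rows of the count table whose symbol begins with Mrps or Mrpl and a number, 78 of 25611 genes. Of these, 29 carry Mrps symbols (small subunit) and 49 carry Mrpl symbols (large subunit). All 78 passed the filter on low counts, which 13190 genes of the table passed.

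Poly(A) RNA was sequenced from livers of 12 male C57BL/6J mice (C57BL6J in the labels) aged 8 to 10 weeks, 4 in each of 3 groups. Sham mice had their abdomen opened without further injury. CLP mice underwent cecal ligation and puncture, in which gut contents leak into the abdomen and cause sepsis. CLP+DCA mice underwent the same surgery and received dichloroacetate (DCA, 25 mg/kg), an inhibitor of the pyruvate dehydrogenase kinases, by intraperitoneal injection at 24 hr. All livers were taken at 30 hr post-surgery, which was 6 hr after the injection. No group of sham mice given DCA was analysed here, so the agent was seen only on top of CLP, and what sham and CLP mice were injected with at 24 hr is not given in the sources used here. Every animal was given saline under the skin.

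Mitochondria carry their own ribosome, which makes only the few proteins encoded in mitochondrial DNA, all of them membrane subunits of the respiratory chain and ATP synthase. Its RNAs come from mitochondrial DNA, whereas every one of its proteins is encoded in the nucleus, made in the cytosol and imported. Part of the proteins have counterparts in bacterial ribosomes and part are found only in mitochondria. Nuclear factors such as NRF1, the ETS family protein GABP and YY1 are known to bind promoters of genes for mitochondrial proteins, and coactivators of the PGC-1 family work with them.

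Promoters are shown first because the members are scattered over the genome and share a function rather than a locus. RefSeq promoters of build GRCm38.p6, from 250 bases before to 50 bases after the gene's start, were matched by gene for 69 of the 78 members. Of these promoters, 16 (23.2%) held the letters GCGCANGCG bound by NRF1, 26 (37.7%) held CCGGAAG bound by ETS factors and 8 (11.6%) held AAGATGGCG bound by YY1, on either strand. Among the promoters of all 27025 genes of that RefSeq promoter set the shares were 7.03%, 9.93% and 1.64%. At least 1 of the 3 strings was found in 42 of the 69 members (60.9%) and in 16.5% of all genes. The 26 small subunit promoters held the NRF1 letters in 15.4%, the ETS letters in 42.3% and the YY1 letters in 15.4%. For the 43 large subunit promoters these shares were 27.9%, 34.9% and 9.3%. A match of letters describes the sequence and is not a shown binding site.

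The following promoters are printed 5′ to 3′, with the letters that matched in capitals. They are Mrpl9 and Mrps22 (called lower in CLP, with matches), Mrps31 (called lower, with none of the 3 strings), Mrpl45 (the NRF1 letters at several places), Mrps12 (the member with the highest fold change in CLP) and Mrps11, whose promoter holds the YY1 letters and overlaps that of another member, Mrpl46. In Mrpl9 the NRF1 letters match on both strands over nearly the same bases.
Mrpl9 (chr3:94443086-94443385, plus strand): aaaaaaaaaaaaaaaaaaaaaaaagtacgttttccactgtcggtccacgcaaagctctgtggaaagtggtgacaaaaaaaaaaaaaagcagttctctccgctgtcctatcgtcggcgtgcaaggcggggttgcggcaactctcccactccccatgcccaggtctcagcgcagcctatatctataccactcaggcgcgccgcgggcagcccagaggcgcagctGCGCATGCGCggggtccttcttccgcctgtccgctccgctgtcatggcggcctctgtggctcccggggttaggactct
Mrpl45 (chr11:97315466-97315765, plus strand): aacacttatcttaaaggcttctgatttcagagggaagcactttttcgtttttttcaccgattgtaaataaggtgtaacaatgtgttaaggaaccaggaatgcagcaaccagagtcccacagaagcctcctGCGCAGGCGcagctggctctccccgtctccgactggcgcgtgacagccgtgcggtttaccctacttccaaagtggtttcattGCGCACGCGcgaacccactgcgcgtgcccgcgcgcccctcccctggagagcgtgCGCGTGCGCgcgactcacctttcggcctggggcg
Mrps22 (chr9:98601630-98601929, minus strand): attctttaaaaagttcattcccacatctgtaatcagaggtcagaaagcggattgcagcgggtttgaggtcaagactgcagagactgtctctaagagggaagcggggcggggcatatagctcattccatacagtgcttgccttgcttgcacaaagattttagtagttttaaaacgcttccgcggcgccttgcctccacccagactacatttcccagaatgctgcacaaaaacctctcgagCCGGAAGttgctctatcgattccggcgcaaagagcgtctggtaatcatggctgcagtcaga
Mrps12 (chr7:28741772-28742071, minus strand): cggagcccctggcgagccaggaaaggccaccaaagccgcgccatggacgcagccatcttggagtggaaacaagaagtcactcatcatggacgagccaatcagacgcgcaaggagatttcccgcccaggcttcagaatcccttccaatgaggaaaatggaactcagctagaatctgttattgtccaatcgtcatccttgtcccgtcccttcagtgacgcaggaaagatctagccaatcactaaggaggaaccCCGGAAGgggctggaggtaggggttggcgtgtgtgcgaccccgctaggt
Mrps11 (chr7:78782881-78783180, plus strand): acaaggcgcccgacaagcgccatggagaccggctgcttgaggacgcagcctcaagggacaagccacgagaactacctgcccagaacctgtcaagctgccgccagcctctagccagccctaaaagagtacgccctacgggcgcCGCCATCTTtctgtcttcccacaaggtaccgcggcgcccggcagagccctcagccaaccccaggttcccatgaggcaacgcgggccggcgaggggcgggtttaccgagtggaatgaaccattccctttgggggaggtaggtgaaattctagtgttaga
Mrps31 (chr8:22411090-22411389, plus strand): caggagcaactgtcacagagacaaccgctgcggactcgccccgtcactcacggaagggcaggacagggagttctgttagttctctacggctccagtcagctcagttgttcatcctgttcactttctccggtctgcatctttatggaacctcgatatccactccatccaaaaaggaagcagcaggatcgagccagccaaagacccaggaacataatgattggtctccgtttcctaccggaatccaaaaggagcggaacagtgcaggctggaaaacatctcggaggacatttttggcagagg

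The mean level of the members over the 12 mice, in CPM (read counts scaled to a common library size with TMM factors), ran from 4.11 for Mrps36 to 81.3 for Mrpl12, with a median of 21.7 against 13.7 for all genes tested. Each member had between 71 and 4063 reads in each mouse, with a median of 713.5. Per exon length (own RPKM from the CPM), the sham means were highest for Mrpl12 (75.03), a protein of the stalk that recruits translation factors, Mrpl52 (71.1), Mrpl14 (54.8) and Mrps21 (49.8). They were lowest for Mrps25 (1.98), Mrpl19 (2.65) and Mrpl47 (2.73). The median sham RPKM was 15.6 for the small and 22.1 for the large subunit. Within the sham group the coefficient of variation over mice had a median of 7.47% for members and 10.8% for all genes.

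Libraries held 24436513 to 44266819 reads on genes. Markers of hepatocytes were abundant in all mice (mean Alb in sham 46635 CPM). CLP+DCA replicate 3 stood apart from its group on the first principal component of all tested genes (82.6, against -28.9 to -16.4 for the other CLP+DCA mice and 8.66 to 72.8 for the CLP mice), and results are given with and without it. Acute phase genes took 12.9 to 14.6% of reads in sham livers, 22.7 to 39.2% in CLP livers, 17.0 to 21.5% in the other 3 CLP+DCA mice and 38.4% in CLP+DCA replicate 3.

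The first comparison asked how the transcripts of the mitochondrial ribosome stood 30 hr after CLP. Most had lower means in septic livers. Of the 78 members, 70 had a negative log2 fold change against sham and 8 a positive one, and the median was -0.25 (-16.1%), with quartiles of -0.41 and -0.11, against 0.02 for all 13190 genes. With library size alone 75 members were lower, with a median of -0.42 against -0.16 for all genes. With library sizes without acute phase genes and no TMM 55 were lower, with a median of -0.10 against 0.17 for all genes. In the quasi-likelihood test of edgeR, with Benjamini-Hochberg adjusted p-values, 5 members fell and 0 rose, where 1.14% of all genes were called lower and 1.64% higher. At an unadjusted p under 0.05, 33 members were lower (42.3%, against 13.1% of all genes) and 1 was higher, where 2039 of the 13190 genes were higher. All 4 CLP mice lay below all 4 sham mice in 37 members (47.4%), which held for 14.2% of all genes, and above them in 0 members, against 12.2% of all genes.

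**Figure D1:**
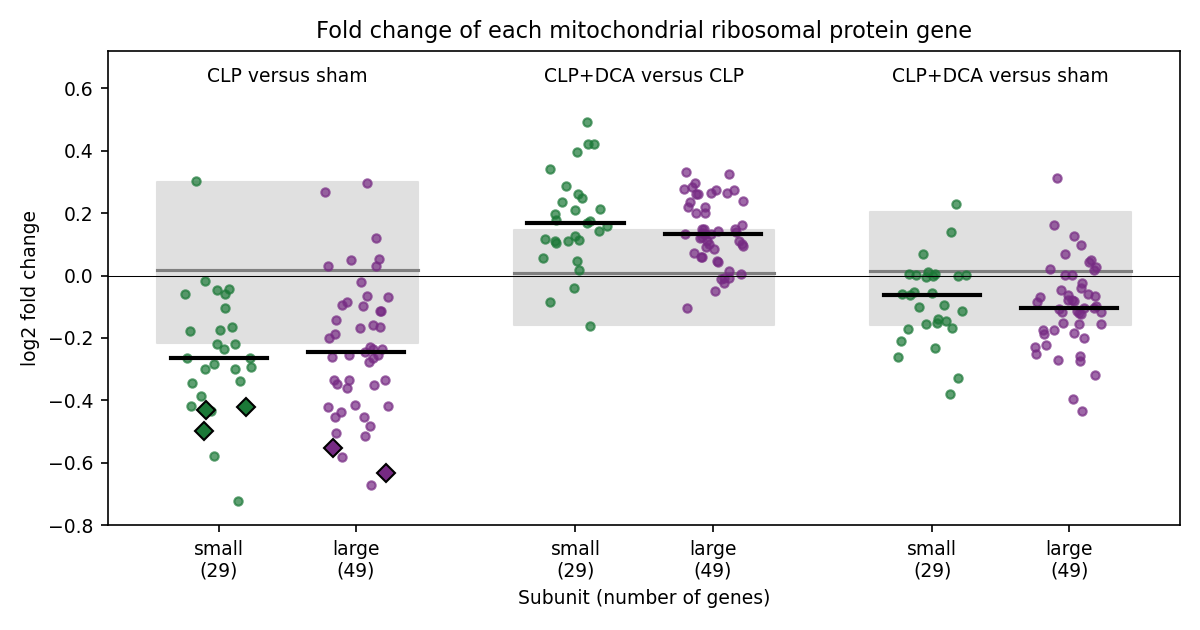
Log2 fold change (y axis) of each small (green, 29) and large (purple, 49) subunit gene in the 3 comparisons. Black lines are medians, diamonds are genes past the threshold, and grey bands span the middle 50% of all genes tested, with their median as a grey line. Both subunits lie mostly below 0 in CLP versus sham, with medians of -0.26 and -0.25.

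The number of genes called depended strongly on which mice were in the fit. Leaving out CLP+DCA replicate 3, a mouse in neither group, raised the 5 calls to 30 (10 small, 20 large), all lower, while the share of all genes called lower went from 1.14% to 11.5%. Leaving out CLP replicate 3 gave 15, with 3.26% of all genes called lower. Leaving out CLP+DCA replicate 4 gave 5, with 1.6% of all genes called lower. Leaving out any one of the other 9 mice gave 0, where 0.015% to 0.405% of all genes were called lower. The medians stayed between -0.34 and -0.21 for the small and between -0.28 and -0.20 for the large subunit. The count of members without overlap was 37 to 51 whichever mouse was left out, the highest without CLP replicate 3 (65.4%, against 19.9% of all genes).

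Small and large subunit genes had close medians. In CLP versus sham the small subunit had 28 of 29 members lower, 3 of them called, and a median log2 fold change of -0.26. The large subunit had 42 of 49 lower, 2 of them called, and a median of -0.25. Groups did not overlap in 11 small subunit members (37.9%) and 26 large subunit members (53.1%). Mrps18a and Mrps30 carry small subunit names but sit in the large subunit, and Mrps36 belongs to another complex, the 2-oxoglutarate dehydrogenase. With these placed by structure, the medians were -0.25 for both. The summed CPM of the small subunit divided by that of the large subunit stayed between 0.468 and 0.496 in all 12 mice, with group means of 0.476 ± 0.0067 for sham, 0.480 ± 0.0051 for CLP and 0.486 ± 0.010 for CLP+DCA (SD, n = 4). The 48 members with a bacterial counterpart had a median of -0.25 and the 30 found only in mitochondria one of -0.26.

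A score per mouse was taken as the mean log2 CPM of a subunit's genes relative to the sham mean. For the small subunit it was -0.02, -0.03, 0.12 and -0.08 in sham replicates 1 to 4 and -0.28, -0.27, -0.13 and -0.36 in CLP replicates 1 to 4. The score was -0.01, 0.08, -0.41 and -0.06 in CLP+DCA replicates 1 to 4. Every CLP mouse stood below every sham mouse, and 3 CLP+DCA mice stood within the sham range while replicate 3 had the lowest value of all. The large subunit scores were -0.02, -0.01, 0.11 and -0.08 for sham livers, -0.27, -0.26, -0.11 and -0.33 for CLP livers, and -0.05, 0.08, -0.38 and -0.09 for CLP+DCA livers. They gave the same picture, except that CLP+DCA replicate 4 stood just below the lowest sham mouse.

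**Figure D2:**
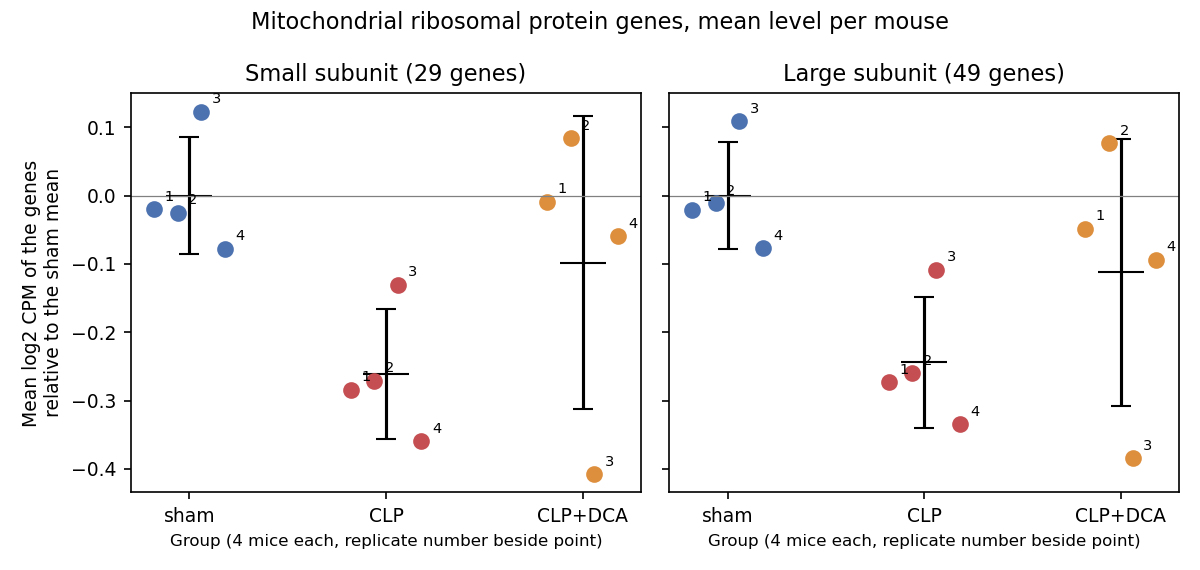
Mean log2 CPM of the genes of each subunit relative to the sham mean (y axis), 1 point per mouse with its replicate number, and the group mean ± SD. All CLP mice lie below all sham mice, and CLP+DCA replicate 3 lies at -0.41 and -0.38, below its 3 group mates.

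Per mouse, CLP replicates 1 to 4 had 64, 55, 43 and 61 of the 78 members below the lowest sham mouse. CLP+DCA replicates 1 to 4 had 21, 9, 64 and 34. These are 55.1 to 82.1% of members in CLP, against 27.3 to 36.6% of all genes in the same mice. In CLP+DCA replicate 3 the share was 82.1%, against 38.0% of all genes, and in replicate 2 it was 11.5%, against 27.5%. In replicates 1 and 4 it was 26.9% and 43.6%, against 23.5% and 22.4% of all genes. CLP+DCA replicate 2 had 32 of the 78 members above the highest sham mouse, against 28% of all genes. CLP+DCA replicate 3 held the lowest value of all 12 mice in 36 members, and sham replicate 3 held the highest in 30.

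**Figure D3:**
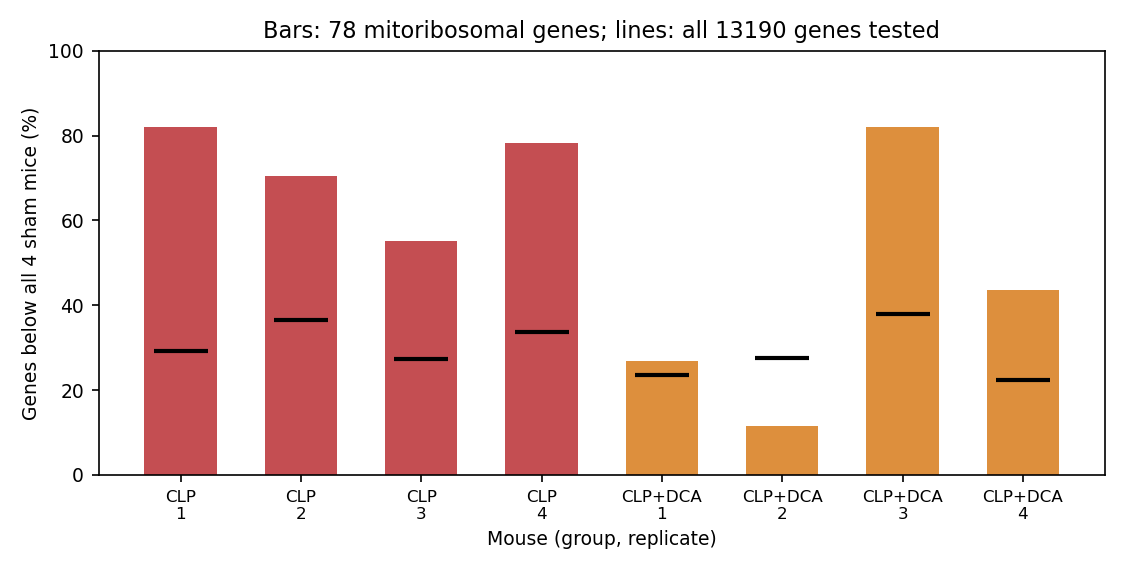
Share of the 78 members (bars, %) below all 4 sham mice in each CLP (red) and CLP+DCA (orange) mouse, with the share of all 13190 genes as black lines. Bars stand above the line in all 4 CLP mice and highest in CLP replicate 1 and CLP+DCA replicate 3, at 82.1% each, and below it only in CLP+DCA replicate 2.

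The first of the 5 called members was Mrpl9, the counterpart of bacterial protein L9 in the large subunit (mm10 chr3:94443336-94448708). Its level was 43.4, 44.4, 46.4 and 42.2 CPM in the sham mice and 29.1, 23.4, 35.6 and 25.3 CPM in the CLP mice. It was 34.99, 32.7, 26.2 and 36.6 CPM in the CLP+DCA mice. No CLP or CLP+DCA mouse reached the lowest sham mouse. The log2 fold change of CLP was -0.63 (SE 0.13, edgeR adjusted p = 0.0403), or -35.6%, and that of CLP+DCA against sham was -0.43 (SE 0.13, edgeR adjusted p = 0.280).

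Mrpl47, whose bacterial counterpart is L29 (chr3:32727497-32736755), was at 8.62, 8.73, 10.1 and 9.24 CPM in sham livers, 6.56, 5.31, 7.10 and 5.97 CPM in CLP livers and 8.26, 7.96, 6.17 and 8.33 CPM in CLP+DCA livers. All sham mice stood above all other mice. The log2 fold change of CLP was -0.55 (SE 0.13, edgeR adjusted p = 0.0462).

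The other 3 carry small subunit names. Mrps22, a mitochondria-specific protein (chr9:98588730-98601679), was at 15.5, 16.2, 16.8 and 17.3 CPM in sham livers, 12.7, 10.4, 11.8 and 11.6 CPM in CLP livers and 17.4, 16.7, 12.5 and 18.9 CPM in CLP+DCA livers. The CLP mice did not overlap the sham mice, and 3 of 4 CLP+DCA mice lay within or above the sham range. Its log2 fold change in CLP was -0.50 (SE 0.12, edgeR adjusted p = 0.0491). Mrps31, also found only in mitochondria (chr8:22411340-22429665), was at 23.7, 23.6, 22.2 and 27.9 CPM in sham livers, 17.4, 16.8, 18.6 and 19.9 CPM in CLP livers and 24.0, 22.4, 25.7 and 25.2 CPM in CLP+DCA livers. All 4 CLP mice were below all other mice, and here CLP+DCA replicate 3 was with its group. The log2 fold change in CLP was -0.42 (SE 0.090, edgeR adjusted p = 0.0412). Mrps30, which sits in the large subunit (chr13:118380110-118387252), was at 21.4, 19.8, 25.02 and 21.6 CPM in sham livers, 16.9, 15.9, 17.9 and 14.5 CPM in CLP livers and 19.4, 19.3, 17.8 and 21.8 CPM in CLP+DCA livers. CLP mice lay below sham mice without overlap, with a log2 fold change of -0.43 (SE 0.10, edgeR adjusted p = 0.0474).

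**Figure D4:**
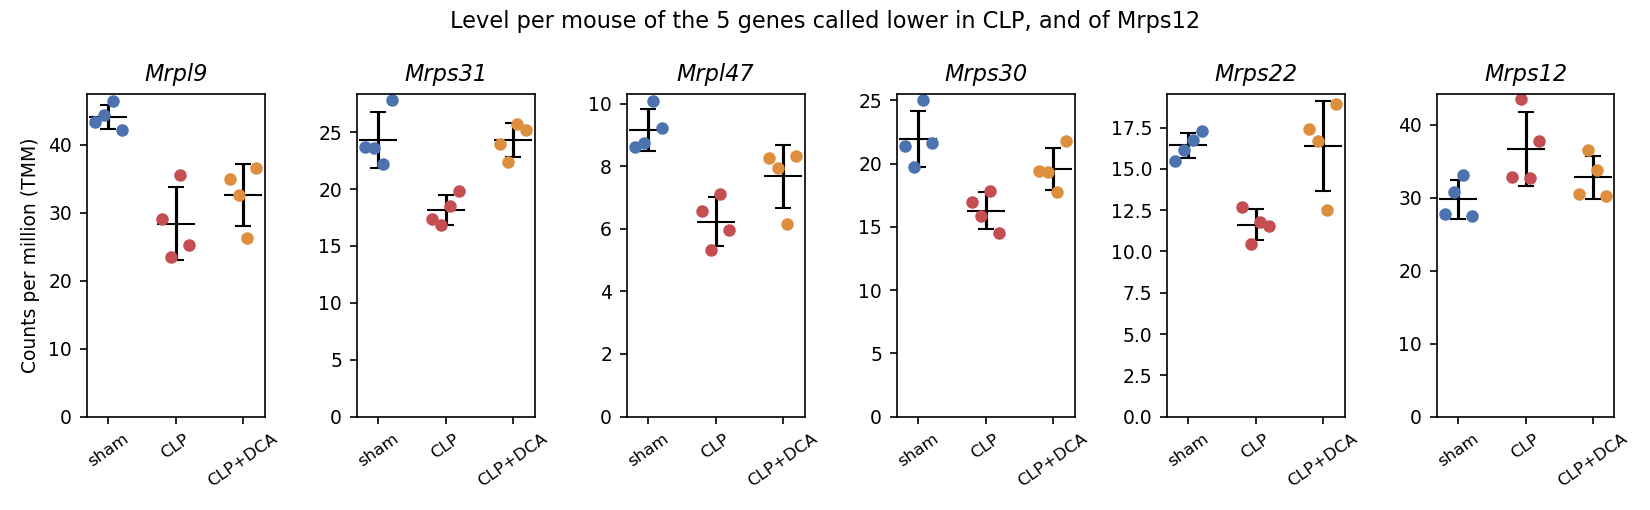
Level in CPM (y axis, from 0) of the 5 members called lower in CLP and of Mrps12, 1 point per mouse, with the group mean ± SD (n = 4). CLP points lie below all sham points in the first 5 panels, and in the Mrps22 panel 1 CLP+DCA point lies at 12.5, below the other 3.

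Further members were also low in CLP but not called, some of them with larger fold changes and wider spread. Mrps35, found only in mitochondria, had the lowest log2 fold change at -0.72 (SE 0.24, edgeR adjusted p = 0.0858), with 20.3 ± 1.93 CPM in sham livers and 12.3 ± 2.46 CPM in CLP livers (SD, n = 4). Mrpl14 had -0.67 (SE 0.27, edgeR adjusted p = 0.132), and its CLP mice spread from 15.7 to 31.2 CPM. Mrpl12, the most abundant member, was at 92.7, 101, 112 and 90.0 CPM in sham livers, 73.2, 50.7, 83.2 and 56.8 CPM in CLP livers and 89.3, 96.7, 38.8 and 92.2 CPM in CLP+DCA livers. Its log2 fold change in CLP was -0.58 (edgeR adjusted p = 0.158). The groups did not overlap in any of the 3, and in all 3 CLP+DCA replicate 3 had the lowest value of the 12 mice. Mrps18a had -0.58 and Mrps16 -0.44, and Mrpl49, which shares 89 bases with Syvn1, had -0.51. Mrpl38, Mrpl39 and Mrpl45, the last known from the protein exit side of the large subunit, had log2 fold changes of -0.45, -0.45 and -0.51 with edgeR adjusted p-values of 0.0560, 0.0603 and 0.0611. Mrps9 followed with -0.42.

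A few members stood the other way. Mrps12, part of the decoding centre, had the highest log2 fold change at 0.30 (SE 0.11, unadjusted p = 0.0179, edgeR adjusted p = 0.107). It was at 27.8, 30.8, 33.1 and 27.5 CPM in sham livers and 32.9, 43.5, 32.7 and 37.8 CPM in CLP livers, and the groups overlapped. Mrpl17 had 0.30 and Mrpl54 0.27, with edgeR adjusted p-values of 0.224 and 0.216, and in both CLP replicate 2 had the highest of the CLP values (73.5 and 25.3 CPM). Mrpl52 had 0.12 by TMM and -0.06 when scaled by library size alone. Among the 3 proteins named Mrps18, Mrps18a was at -0.58 and Mrps18c at -0.30, without overlap of the groups, and Mrps18b at -0.06 with overlap. Mrps23, Mrps28 and Mrps34 had values of -0.04, -0.02 and -0.05.

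Mrps36, the lowest by CPM, had -0.26 (edgeR adjusted p = 0.298), and Mrpl23 had -0.20. Mrps6 had -0.34 (edgeR adjusted p = 0.196), but 29138 of its 53892 bases are shared on the same strand with Slc5a3, so its reads are uncertain. In all, 12 members overlap another gene of the table, and the strand setting of the counting is not given in the sources used here. Mrps7, the most abundant small subunit gene, had -0.24, and Mrpl30 had -0.26.

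Some members share a promoter region with a gene read the other way. A divergent start within 1000 bases was found for 28 members, and the share over all genes was not counted. The starts of Mrps11 and Mrpl46, both members, lie 42 bases apart on chromosome 7. Both had lower means in CLP, with log2 fold changes of -0.22 and -0.17 and overlap of the groups. Of 24 tested neighbours that are not members, 13 were lower in CLP, 8 of them without overlap, which held for 14.2% of all genes. The neighbours had a median log2 fold change of -0.11. The 24 members beside them had a median of -0.25, and 12 were lower without overlap. Within single pairs the values could match or part. Mrpl47 and Ndufb5, a complex I subunit, had -0.55 and -0.49. Mrps12 had 0.30, whereas its neighbour Sars2, the mitochondrial seryl-tRNA synthetase, 187 bases away, had -0.36 with all CLP mice below all sham mice. Mrps34 had -0.05, whereas Eme2, starting 33 bases away, had 0.55 (edgeR adjusted p = 0.0474). Of 33 lower members without overlap and with a promoter, 27.3% held the NRF1 letters, 33.3% the ETS letters and 15.2% the YY1 letters. Of the 36 overlapping members with a promoter the shares were 19.4%, 41.7% and 8.33%.

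Genes around the ribosome, taken as whole lists, had 0 genes called in each list in CLP versus sham by edgeR. Over all genes 1.14% were called lower and 1.64% higher, and 13.1% were lower at an unadjusted p under 0.05. All 5 mitoribosomal proteins with other names had lower means (4 at an unadjusted p under 0.05), with a median of -0.30, and Ptcd3 (-0.46, edgeR adjusted p = 0.0504) and Dap3 (-0.25, edgeR adjusted p = 0.0660) were among them. All 16 translation factors had lower means (6 at an unadjusted p under 0.05), with a median of -0.21. Mtif3, an initiation factor, had -0.37 (edgeR adjusted p = 0.0514), and Tufm, the elongation factor Tu of mitochondria, had -0.43 (edgeR adjusted p = 0.0746). Of 17 mitochondrial aminoacyl-tRNA synthetases 13 had lower means (8 at an unadjusted p under 0.05), with a median of -0.16, Nars2 at -0.65 and Fars2 at -0.43.

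Of 26 assembly and rRNA modification factors 22 had lower means, with a median of -0.25, and Nsun4, an rRNA methyltransferase, had -0.31. At an unadjusted p under 0.05, 11 were lower (42.3%, against 13.1% of all genes) and 3 higher, where 2039 of 13190 genes were higher. The 4 with higher means were Ddx28 at 1.39, Trmt61b at 0.67, Tfb1m at 0.57 and Dhx30 at 0.08. All 4 lay above sham without overlap (15.4% of the list, against 12.2% of all genes). For Dhx30 the lowest CLP mouse was at 29.43 CPM and the highest sham mouse at 29.40 CPM. Ddx28, a helicase of large subunit assembly, was at 17.0, 17.5, 17.5 and 16.8 CPM in sham livers and 28.8, 77.0, 31.3 and 43.8 CPM in CLP livers. It was at 21.3, 23.8, 87.1 and 21.5 CPM in CLP+DCA livers, highest in replicate 3. Its edgeR adjusted p in CLP was 0.0922, and that of Trmt61b, a methyltransferase, was 0.0630.

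**Figure D5:**
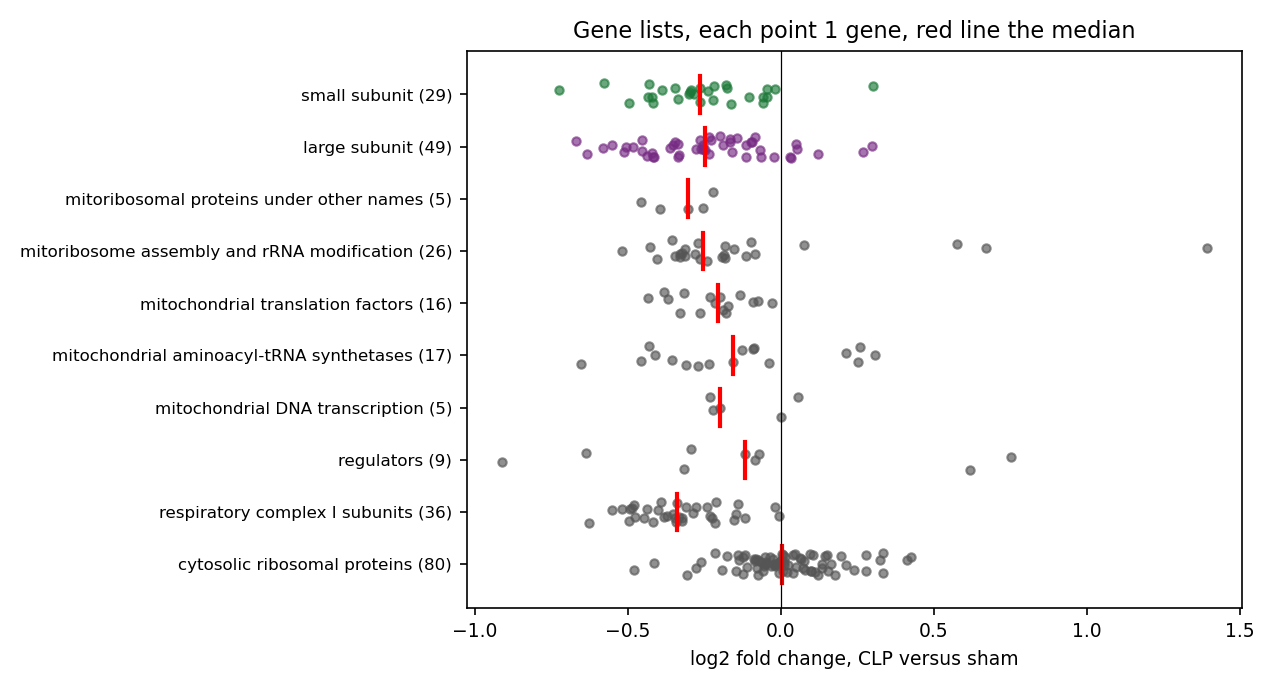
Log2 fold change in CLP versus sham (x axis) of each tested gene (points) in the 2 subunits and 8 other lists, with the number of genes tested beside the name and the median in red. The median lies near 0 for cytosolic ribosomal proteins (0.00) and at -0.34 for complex I subunits.

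Transcription factors and coactivators known from the control of such genes differed among themselves, and 0 of 9 were called by edgeR. Over all genes 1.14% were called lower and 1.64% higher. At an unadjusted p under 0.05, 4 of the 9 were lower and 1 higher, where 13.1% of all genes were lower and 2039 of 13190 higher. Ppargc1b had the lowest value at -0.91 (edgeR adjusted p = 0.0691), with 3.28 to 3.93 CPM in sham livers and 1.57 to 2.10 CPM in CLP livers. Esrra, a nuclear receptor, had -0.64, and the GABP subunits Gabpa and Gabpb1 had -0.29 and -0.32. Pprc1, another coactivator of the PGC-1 family, had 0.75 (edgeR adjusted p = 0.0702), with 10.04 to 16.4 CPM in sham livers and 18.6 to 24.9 CPM in CLP livers. Nrf1 had -0.07, Ppargc1a -0.08, Yy1 -0.12 and Myc 0.62. Genes for transcription of mitochondrial DNA had a median of -0.20 (2 of 5 lower at an unadjusted p under 0.05), with Tfam at -0.22 and Tfb2m at -0.20.

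The 80 tested ribosomal proteins of the cytosol, which serve as a comparison of another ribosome, had a median log2 fold change of 0.00 in CLP versus sham. Of these, 37 had lower and 43 higher means. At an unadjusted p under 0.05, 4 were lower and 2 higher, where 13.1% of all genes were lower and 2039 of 13190 higher. The smallest p-values were those of Rps27l (-0.41, edgeR adjusted p = 0.0651) and Rpl41 (0.43, edgeR adjusted p = 0.110). Groups did not overlap in 4 lower genes (5%) and 1 higher gene (1.25%), against 14.2% and 12.2% of all genes. Of the mitochondrial ribosome's members 47.4% were lower without overlap. The 36 tested subunits of respiratory complex I, a complex that also holds subunits made by the mitochondrial ribosome, all had lower means. Their median was -0.34, and 24 of 36 (66.7%) lay below sham without overlap, against 14.2% of all genes. Ndufa9 (-0.52, edgeR adjusted p = 0.0522) and Ndufa10 (-0.50, edgeR adjusted p = 0.0541) had the smallest p-values. In CLP+DCA versus sham the median of the 36 was -0.23, with 12 lower without overlap (33.3%, against 4.97% of all genes).

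Markers of cell types differed between the same groups. The 8 hepatocyte markers summed to 62560 to 81838 CPM in sham livers, 28757 to 45051 CPM in CLP livers, 50995 to 57628 CPM in the other 3 CLP+DCA mice and 26054 CPM in CLP+DCA replicate 3. Most of the sham sum was Alb. In CLP 7 of these markers had lower means and 1 a higher one, and 2 lay below sham without overlap (25%, against 14.2% of all genes). The 10 neutrophil markers summed to 6.23 to 8.96 CPM in sham livers, 31.8 to 45.9 CPM in CLP livers, 6.28 to 14.0 CPM in these 3 CLP+DCA mice and 61.3 CPM in replicate 3. In the CLP mice 8 of the 9 tested neutrophil markers lay above sham without overlap, Camp had no read in sham, and Ly6g had a lower mean (0.459 against 0.822 CPM). Markers of stellate cells and cholangiocytes summed to 76.7 to 117 CPM in sham livers, 131 to 241 CPM in CLP livers, 94.2 to 99.8 CPM in 3 CLP+DCA mice and 291 CPM in replicate 3. Macrophage markers summed to 166 to 280 CPM in sham, 259 to 337 CPM in CLP and 219 to 426 CPM in CLP+DCA livers. CLP+DCA replicates 1 and 2, at 426 and 412 CPM, stood above every CLP mouse. In CLP 1 of 8 macrophage markers lay above sham without overlap (12.5%, against 12.2% of all genes). In the same order of groups endothelial markers summed to 103 to 134, 123 to 154 and 98.8 to 148 CPM. Lymphocyte markers summed to 1.81 to 3.83, 0.449 to 1.40 and 0.704 to 2.42 CPM. Their part in the members' values was not tested. In bulk RNA, fewer cells of a type and less RNA of its markers per cell cannot be told apart.

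The second comparison asked whether DCA, given on top of CLP, moved these transcripts, and it shares the CLP mice with the first. Means were mostly higher than in CLP, but the differences were small against the spread between mice. Of the 78 members 69 had a positive log2 fold change and 9 a negative one, with a median of 0.14 (0.17 small, 0.13 large, 0.01 all genes). Leaving out CLP+DCA replicate 2 lowered the median to 0.065, with 22 members lower. With library size alone the median was 0.26, with 1 member lower, against 0.12 for all genes. By edgeR 0 members were called, where 0.00758% of all genes were, and 12 members were higher at an unadjusted p under 0.05 (against 5.06% of all genes). Groups did not overlap in 1 higher member, against 2.32% of all genes, and in 0 lower ones, against 2.05%. DESeq2 on the same 12 mice called 2 members and 0.875% of all genes, and voom with sample quality weights called 19 members and 10.2% of all genes. The coefficient of variation of the members had a median of 15.3% in CLP+DCA and of 8.42% without replicate 3.

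The member without overlap was Mrps31, with 24.3 ± 1.499 CPM in CLP+DCA livers and 18.2 ± 1.34 CPM in CLP livers (SD, n = 4) and a log2 fold change of 0.42 (edgeR adjusted p = 0.178). Mrps22 had 0.49 (edgeR adjusted p = 0.216), Mrps18a 0.42, Mrpl21 0.27, Mrpl18 0.24 and Mrpl1 0.33. Mrpl21 was at 16.0 CPM in CLP+DCA replicates 1, 2 and 4 and at 12.7 CPM in replicate 3, against 10.9 to 13.7 CPM in CLP livers. Mrpl1 was at 21.4, 21.0 and 23.1 CPM in these 3 mice and at 14.5 CPM in replicate 3, with 14.6 to 18.5 CPM in CLP livers.

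Without CLP+DCA replicate 3, more members passed the threshold. The median log2 fold change was 0.23, 9 members rose by edgeR (4 small, 5 large), where 267 of 13288 genes were called higher and 4.64% were called in either direction, and 0 fell. Non-overlap of the groups held for 32 members (41.0%) on the higher side, against 12.4% of all genes. The 9 were Mrps18a, Mrps22, Mrps31, Mrps35, Mrpl1, Mrpl21, Mrpl28, Mrpl35 and Mrpl39. Without this mouse Mrps22 had a log2 fold change of 0.60 (SE 0.0874, edgeR adjusted p = 0.0116), with 17.7 ± 1.15 CPM (SD, n = 3). Mrps35 had 0.61 (SE 0.14, edgeR adjusted p = 0.0337), with 18.8 ± 0.977 CPM. Replicate 3 was singled out by its place among the CLP mice or beyond on the first principal component of these same data. The labels give no technical reason to leave it out. Its removal widens the difference from CLP, so these p-values and calls are a description and no independent test of DCA.

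The third comparison set CLP+DCA against sham, and shares mice with both others. Of the 78 members 58 had a negative log2 fold change, with a median of -0.10 (-0.06 small, -0.10 large, 0.01 all genes). The direction turned with library sizes without acute phase genes and no TMM, where 31 members were lower and the median was 0.02, against 0.14 for all genes. Leaving out CLP+DCA replicate 2 gave 70 lower and a median of -0.16. By edgeR 0 members were called, where 0.0379% of all genes were, and 3 members were lower at an unadjusted p under 0.05 (against 4.85% of all genes). Groups did not overlap in 6 lower members (7.69%, against 4.97% of all genes) and in 0 higher ones (against 4.78%). Leaving out CLP+DCA replicate 2 raised the 6 to 15 (19.2%, against 7.26% of all genes). Without replicate 3 the median was -0.01, 43 members were lower and 6 did not overlap (7.69%, against 6.47% of all genes). In that fit edgeR called 0 members and 0.0828% of all genes. DESeq2 on all 12 mice called 0 members and 1.79% of all genes, and voom with sample quality weights called 1 member and 3.76%.

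The 3 members at an unadjusted p under 0.05 were Mrps27, Mrpl9 and Mrpl44. Mrps27, which binds mitochondrial RNA, was at 25.1, 25.4, 31.4 and 24.7 CPM in sham livers, 22.3, 22.7, 21.0 and 20.9 CPM in CLP livers and 21.9, 22.1, 17.1 and 20.9 CPM in CLP+DCA livers. Neither septic group overlapped sham, and its log2 fold change in CLP+DCA was -0.38 (SE 0.10, edgeR adjusted p = 0.241). Its locus holds 6430562O15Rik on the other strand over 1991 bases. Mrpl44 was at 18.7 ± 1.26 CPM in sham livers and 15.5 ± 1.85 CPM in CLP+DCA livers (SD, n = 4), with -0.27 (edgeR adjusted p = 0.319). Mrpl3 had -0.27 and Mrps9 -0.21, whereas Mrps18b had 0.23.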

How the data were processed

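The authors made poly(A)-enriched libraries from whole liver, sequenced paired 100-base reads, with mm10 alignment by STAR 2.5 and gene counts by featureCounts of Subread 1.5.0-p1, as the submitters' processing notes name them. The deposited table holds these counts, unnormalized, with NCBI Gene identifiers and mm10 coordinates. The gene annotation and strand setting are not given in the sources used here. Each mouse was 1 replicate, grouped by its label. The members and lists were chosen with earlier results of these data known.

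Genes past edgeR's filterByExpr (minimum count 10) were fitted across all 12 mice with TMM factors, robust quasi-likelihood dispersion and 3 contrasts (edgeR 4.0.16, limma 3.58.1, R 4.3.3), at a false discovery rate of 0.05 over all 13190 genes. SE was taken as the log2 fold change divided by the square root of F. DESeq2 1.42.0 and voom were alternatives, with other scalings, filters and left-out mice. Simulated data were used to test edgeR, DESeq2 on all 12 mice and voom, but not the other scalings, filters and left-out mice. They had the same dispersion for all genes, far larger changes than those of the members, and no outlying mouse. They therefore cannot show how these fits behave with small changes or with a mouse like CLP+DCA replicate 3. RPKM used exons of GENCODE vM21 transcripts paired with curated RefSeq mRNAs, and promoters came from RefSeq on GRCm38.p6, the same assembly as mm10. Depth was 24436513 to 44266819 reads per mouse, and CPM carries its counting error. Between mice of a group, counts differed by more than sampling noise (chi-square per degree of freedom of 24.8 or more).

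Members named were those past the threshold, the 5 lowest, 3 highest and 5 smallest p per subunit in CLP versus sham, the 3 smallest p per subunit in the other contrasts, the highest and lowest levels, and Mrps18a to c, Mrps30, Mrps36, Mrpl30 and Mrpl12. From the other lists, all regulators and the 2 smallest p per list were named. Library sizes without acute phase genes and no TMM, and leaving out each mouse for the non-overlap counts, were added after seeing the data. Sars2, Eme2, Ndufb5, Ddx28, Tfb1m, Dhx30, Alb, Camp, Ly6g, Mrps11, Mrpl46, members with extreme RPKM, and those called without CLP+DCA replicate 3 were named after their values were seen.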

Additional observations from a re-analysis of the deposited data

Results flagged for a closer look

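In groups of 4 mice, 8 of 120 groups held a mouse far from its nearest neighbour (a gap over 0.829 of the group's range), where chance flags about 5%. Of these, 4 were in CLP+DCA replicate 3, the lowest of its group, with 8.31 CPM of Mrps35 (next 17.7), 38.8 CPM of Mrpl12 (next 89.3), 12.1 CPM of Mrpl49 (next 25.2) and 12.7 CPM of Mrpl21 (next 16.0). Sham replicate 3 was the highest of its group in Mrps16 (25.3 CPM, next 19.8), Mrpl52 (33.7 CPM, next 28.8) and Mrps27 (31.4 CPM, next 25.4). CLP replicate 4 was the lowest in Mrpl23 (5.97 CPM, next 7.03).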

How the results depend on the processing

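In CLP versus sham, 5 members were called. The count was 16 by DESeq2 on all 12 mice, 28 by edgeR and 32 by DESeq2 on the 8 mice compared and 37 by voom with sample quality weights, where 6.09%, 8.99%, 11.4% and 13.1% of all genes were called lower. It was 20 at an FDR of 0.10 and 0 at 0.01, thresholds at which the share of all genes was not taken. The count was 1 with library size alone and 1 with library sizes without acute phase genes and no TMM (chosen after seeing the data). It was 0 without a filter on low counts and 0 with the replicate block. In the same order, 1.11%, 0.782%, 0.281% and 0.0758% of all genes were called lower. The count ran from 0 to 30 when leaving out 1 mouse, where 0.015% to 11.5% of all genes were called lower. All 5 main calls were among those of both DESeq2 fits and voom. In CLP+DCA versus CLP the 0 calls became 2 by DESeq2, 1 by DESeq2 on 8 mice, 19 by voom and 0 to 9 when leaving out 1 mouse, where 0.875%, 0.615%, 10.2% and up to 4.64% of all genes were called. In CLP+DCA versus sham they became 1 by voom, with 3.76% of all genes. The cause was not tested.

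The median log2 fold changes of the subunits in CLP versus sham were -0.43 (small) and -0.42 (large) with library size alone, where the median of all genes was -0.16, and -0.11 and -0.093 with library sizes without acute phase genes and no TMM, where that of all genes was 0.17. Both stood below the median of all genes under each. The small minus large difference, -0.02 in CLP versus sham, was 0.0033 with subunits by structure and -0.053 to 0.0064 when leaving out 1 mouse. In CLP+DCA versus CLP it was 0.063 by voom and 0.0059 to 0.055 when leaving out 1 mouse. The small minus large subunit median log2 fold change, CLP+DCA versus sham, was -0.0027 by voom and -0.011 to 0.052 when leaving out 1 mouse.

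The sign turned for 5 named members. Leaving out 1 mouse gave -0.079 to 0.011 for Mrps23, -0.11 to 0.044 for Mrps28, -0.098 to 0.015 for Mrps34 and -0.16 to 0.0083 for Mrps18b, and library sizes without acute phase genes and no TMM gave 0.11, 0.14, 0.11 and 0.10. Mrpl52 was at -0.063 with library size alone. Over all genes the 367 calls in CLP versus sham became 1906 by DESeq2, 3453 by voom, 3157 without CLP+DCA replicate 3 and 46 with the replicate block. Correlations of deviations were -0.46 to 0.55 for 12 same-numbered pairs of mice and -0.61 to 0.70 for 36 others. These overlapping ranges gave no sign that the labels' replicate numbers pair the mice, but they cannot exclude it. With the replicate block 0 members were called in each comparison. In CLP versus sham, CLP+DCA versus CLP and CLP+DCA versus sham, 0.349%, 0.0303% and 0% of all genes were called with it.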
